A study of Mus musculus with 24 samples.

Results

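Untreated fibroblasts grown from mouse ears were compared at 24 and 3 months of age in 8 of the 24 polyadenylated RNA libraries of the series, chosen by their sample titles alone. The 4 libraries titled for 24 months were numbered replicates 1 to 4, and so were the 4 libraries titled for 3 months. All 24 libraries came from cells that carry a doxycycline-inducible OSK transgene, the reprogramming factors Oct4 (gene symbol Pou5f1), Sox2 and Klf4. The labels name no treatment for the 8 untreated libraries. The other 16 libraries, 4 for each age and treatment, had OSK switched on for 6 days, either alone or followed by 4 days of doxycycline withdrawal, and they are used here to set the age difference beside that of treated cells. They also entered the filter on low values and the estimate of spread behind each limma p. Strain, sex, the promoter that drives the transgene, the number of animals, the passage and the harvest day of the untreated cells are not given in the sources used here. The 24-month library names carry the letters a, b, d and e, and the 3-month names b1, b2, C and E. No label says that the libraries of an age came from separate animals or cultures, so p-values measure the spread between libraries, which may be partly technical, and in the limma fit that spread is pooled over the 6 groups of all 24 libraries.

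Ear skin lies over a plate of elastic cartilage, and a culture grown from an ear piece can hold dermal fibroblasts, perichondrial cells and chondrocytes. Dermal fibroblasts make collagens, proteoglycans and the enzymes that cross-link and remodel them, and they keep a memory of body position in their homeobox genes. Chondrocytes make a different matrix, built on type II collagen and aggrecan.

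The 8 libraries held 23671970 to 31959372 reads assigned to genes. Values below are the deposited normalized counts, that is, reads divided by 1 factor per library. Changes are log2 differences of log2(normalized count + 1) with their standard error (SE), 24 minus 3 months, which understate the change of low genes. Along the first principal component, which held 53.4% of the variance of the tested genes, the 3-month libraries lay at -60.3, -31.2, -49.2 and -53.2 and the 24-month libraries at 54.3, 80.9, 6.62 and 52.1. The ages did not overlap on it. Replicate 3 at 24 months, also the shallowest library, lay nearest to the 3-month libraries, and replicate 2 at 24 months lay farthest from them.

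Of 14138 genes tested, 2981 (21.1%) were called at an adjusted p under 0.05 by limma with Benjamini-Hochberg adjustment. At 24 months 1598 genes (11.3%) were higher and 1383 (9.78%) were lower, the shares against which the counts of each gene list below are to be read. The median absolute change of the called genes was 0.82, and the median change of all tested genes was 0.0031. Changes of at least 2-fold on this scale numbered 784 higher and 457 lower, and changes of at least 8-fold 134 higher and 72 lower. The libraries of the ages did not overlap in 2465 of the called genes, 17.4% of those tested. Called or not, 3539 tested genes (25.0%) had no overlap, beside 2.86% by chance for 4 against 4 libraries. Without 24-month replicate 2 there were 2673 calls, and without 24-month replicate 3 there were 3266. Replicate 3 was the 24-month library nearest to the 3-month mean in 958 of the 1598 higher calls and in 727 of the 1383 lower calls, a split looked at after the library values were seen.

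**Figure D1:**
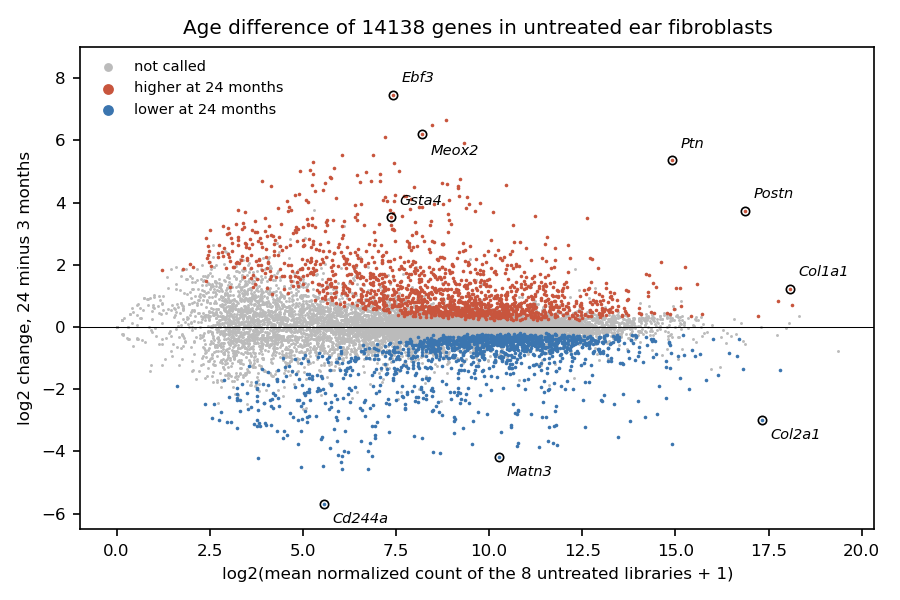
Each point is 1 of 14138 genes, with the log2 of the mean normalized count + 1 over the 8 untreated libraries on the horizontal axis and the log2 change, 24 minus 3 months, on the vertical axis. The 1598 genes called higher are red and the 1383 called lower are blue, and circles mark genes described in the text, from Ebf3 at 7.46 to Cd244a at -5.70.

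The cells of both ages had the transcripts of a mesenchymal culture. Vim, an intermediate filament of mesenchymal cells, stood at 264502, 240022, 224930 and 285805 normalized counts at 3 months and 252540, 166202, 330599 and 267017 at 24 months, and its groups overlapped (log2 change -0.03, SE 0.17, limma adjusted p 0.92). Of 23 tested genes listed for fibroblast identity, 12 were higher at 24 months, 2 were lower and 9 were not called, with a median change of 0.69. Pi16, a marker of a fibroblast state found in many tissues, stood at 0, 5.94, 1.89 and 6.04 at 3 months and 95.4, 104, 39.7 and 127 at 24 months. Fap, a serine protease of activated fibroblasts, had a mean of 7.15 ± 4.36 at 3 months and 63.1 ± 41 at 24 months (SD, n = 4 each). The pair of lower members were Lum and Dcn, which encode the small proteoglycans lumican and decorin that bind collagen fibrils. Lum fell from 6691 ± 3346 to 2444 ± 727, and Dcn from 5261 ± 1015 to 2614 ± 427 (SD, n = 4 each).

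Chondrocyte markers were lower at 24 months. Of the 21 tested members of their list 18 were lower, 0 were higher and 3 (Comp, Cytl1 and Matn1) were not called, and the median change was -2.37. Col2a1, the chain of type II collagen, stood at 339165, 184662, 336091 and 285699 normalized counts at 3 months and at 47549, 10749, 81770.5 and 35169.8 at 24 months. Every 24-month library lay below every 3-month library, and the 3-month mean was 6.54 times the 24-month mean (limma adjusted p 0.00084). Acan, the large proteoglycan of cartilage, stood at 73763, 40452, 55620.1 and 51503 at 3 months and 6478, 573, 14243 and 4737 at 24 months. Replicate 2 was the lowest and replicate 3 the highest 24-month library for both genes. Hapln1, the link protein that ties aggrecan to hyaluronan, changed by -3.68 (SE 0.91) and Snorc, a small cartilage proteoglycan, by -3.98 (SE 0.92), and the Snorc call was lost with a pseudocount of 0.1. Comp, a matrix protein of cartilage and tendon, had means of 94612 ± 7045 and 54666 ± 41338 with overlapping groups (limma adjusted p 0.16). In bulk libraries, fewer cells of a type and less RNA per cell cannot be told apart.

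The summed level of the chondrocyte markers ranged from 535100 to 835155 normalized counts over the 3-month libraries and from 63287 to 347939 over the 24-month libraries, or from 1.97% to 2.99% and from 0.233% to 1.30% of assigned reads. No marker of the list was at 0 in all 8 libraries. The sum moved with age in the treated libraries also, from 358958 to 539215 against 63040 to 246233 after withdrawal and from 27846 to 49713 against 11668 to 23354 with OSK. The part of these transcripts in the other age differences was not tested. Without 24-month replicate 2 the median change of the list was -1.65, and without 24-month replicate 3 it was -2.87.

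**Figure D2:**
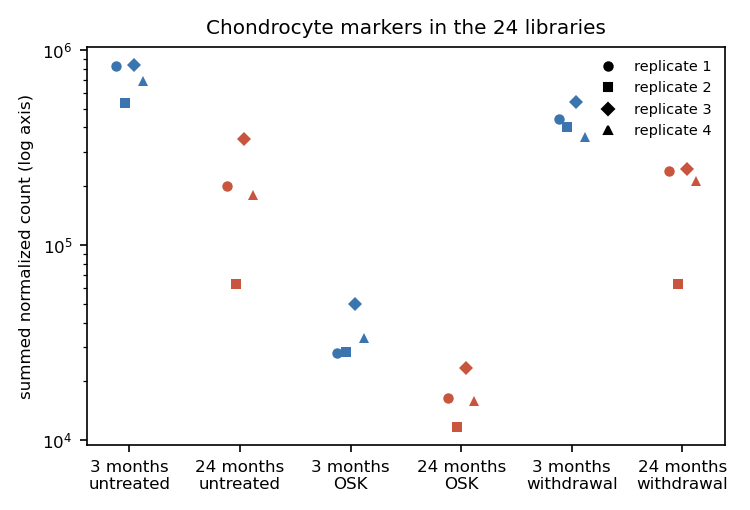
Summed normalized count of the chondrocyte markers (vertical log axis) in each of the 24 libraries, by age and treatment, with 1 symbol per replicate number, blue at 3 months and red at 24 months. The 4 untreated 3-month libraries lie between 535100 and 835155 and the 4 untreated 24-month libraries between 63287 and 347939.

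Markers of other cell types were summed in the same way. The summed level of 19 keratinocyte markers was 1291 to 1460.5 at 3 months and 1204 to 1431 at 24 months, with Dsg1a and Dsg3 at 0 in all 8 libraries and 0 of 11 tested members called. The macrophage sum was 260.3 to 292 and 189 to 234 (0 higher and 1 lower of 8 tested, C1qc at 0 in all 8), and the lymphocyte sum did not pass 13.9 in any library. Of 8 tested endothelial markers 3 were higher at 24 months and 0 lower. They included Tek and Flt1, receptors of angiopoietins and of VEGF. Tek stood at 4.27, 34, 31.2 and 10.1 and 342, 789, 89.6 and 698, and Flt1 at 6.4, 9.33, 2.84 and 1.01 and 48.6, 479, 10.2 and 111, with replicate 2 the highest at 24 months for both. The endothelial sum was 1611 to 2430 at 3 months and 947 to 2318 at 24 months. Its highest member, Erg, reached 2317 in 1 library, so the sum does not show the level of the other members. Of 7 tested Schwann cell and neural markers 3 were lower, S100b and Cdh19 among them, and 1, Ngfr, was higher. S100b, a calcium-binding protein also made by chondrocytes, stood at 7230.1, 3817, 5233 and 7225 and 776, 104, 3402 and 591, while Sox10, Foxd3 and Gfra3 were at 0 in all 8 libraries. Of 8 tested pericyte and smooth muscle markers 3 were higher and 1 was lower. Their sum was 22390.3 to 28808 at 3 months and 18169 to 53535 at 24 months. Acta2 alone made 50689.8 of the 53535 in 24-month replicate 2, so the sum does not show the level of the other members. Adipocyte markers had 0 higher and 2 lower of 10 tested, and 0 of 3 melanocyte and 0 of 9 skeletal muscle markers were called. The Y-linked gene Ddx3y stood at 2085 to 3006 and the X-inactivation RNA Xist at 1.85 to 19.9 over the 8 libraries, and 0 of 5 tested sex-linked genes were called.

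Several of the largest log2 rises began from levels near 0 at 3 months. Ebf3, a transcription factor of the early B-cell factor family expressed in mesenchyme, stood at 1.07, 1.7, 0 and 0 normalized counts at 3 months and at 261, 509, 77.1 and 517 at 24 months. As no 3-month library held more than 3 reads, its level was at least 117-fold higher at 24 months, computed against 3 reads per library (log2 change 7.46, SE 0.64, limma adjusted p 1.3e-07). By the same floor Scn7a, a sodium channel subunit, was at least 44.8-fold higher, Ldb2, a cofactor of LIM-domain transcription factors, at least 25.5-fold, and Ms4a4d, a membrane protein of the MS4A family, at least 24.5-fold. Scn7a stood at 71.1, 351, 5.67 and 92.2 and Ms4a4d at 88.5, 148, 6.8 and 40.3 at 24 months, both highest in replicate 2 and lowest, near the floor, in replicate 3. Without replicate 2 their bounds were 19.4-fold and 15.6-fold. Galnt17, of the enzyme family that starts mucin-type O-glycosylation, stood at 0, 17, 13.2 and 0 at 3 months and 375, 2080.2, 74.8 and 271 at 24 months. Replicate 2 was several times above the other 24-month libraries, and no 24-month library reached down to the 3-month range.

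Pleiotrophin, the secreted heparin-binding growth factor encoded by Ptn, combined a large fold with a high level. Ptn stood at 1271, 2183, 941 and 1613 normalized counts at 3 months and 83342, 43437, 49598 and 65387 at 24 months, a mean 40.2 times higher (log2 change 5.35, SE 0.27, limma adjusted p 2.6e-11). The lowest 24-month library was far above the highest 3-month library. Mndal, an interferon-inducible gene of a cluster of close paralogs, whose reads may be shared among them, stood at 1.07, 12.7, 5.68 and 1.01 and 339, 169.6, 95.2 and 304. Syndig1, a transmembrane protein known from synapses, rose by 5.27 (SE 0.67). In 10 of the 12 largest rises the 24-month library with the lowest value was replicate 3, and in the other two it was replicate 2.

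Among the 12 largest falls in log2, Cd244a, a receptor known from natural killer cells, stood at 142, 57.7, 70 and 101 normalized counts at 3 months and 0.87, 0, 3.4 and 0 at 24 months, at least 32.3-fold lower. Fcgr2b, the inhibitory receptor for IgG, stood at 180.4, 92.5, 146 and 119.8 and 4.34, 3.71, 30.6 and 4.48, and Cd28, a costimulatory receptor known from T cells, at 65.1, 96.7, 79.5 and 94.6 and 15.6, 0, 11.3 and 0. The lymphocyte and macrophage sums given above were low in both ages. Gal3st2, a sulfotransferase acting on galactose, stood at 173, 152, 400.4 and 98.7 and 6.07, 4.63, 7.94 and 8.06, a tight 24-month group. Zfp385b, a zinc finger protein, fell by 4.58 on the log2 scale (SE 0.57), Asic2, an acid-sensing ion channel, by 4.51 (SE 0.61), and Map7d2, a microtubule-associated protein, by 4.34 (SE 0.95). F13a1, the transglutaminase subunit of coagulation factor XIII, fell by 3.99 (SE 0.88). Matn3, a matrilin of cartilage matrix, stood at 3054, 1225, 3004 and 1763 and 200.3, 25, 395 and 88.7 and belongs to the chondrocyte list.

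In some of these falls, Fcgr2b above among them, 1 library of the 24-month group lay far above the others. Sim1, a bHLH-PAS transcription factor, stood at 148, 139, 333 and 166 at 3 months and 8.67, 120.5, 1.13 and 3.58 at 24 months, where replicate 2 lay just below the 3-month range. Coch, an extracellular protein known from the inner ear, stood at 1627, 449, 422 and 379.6 and 21.7, 13, 353 and 13.4, with 24-month replicate 3 close to the 3-month libraries. The calls of Sim1 and Coch were lost with edgeR and with DESeq2 on the recovered reads, and that of Coch also without 3-month replicate 1.

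Transcription factors that pattern the head and limbs were higher at 24 months more often than lower. Of 57 tested factors listed for head and limb development 22 were higher at 24 months and 4 were lower, with a median change of 0.68. Meox2, a homeobox factor of mesoderm, stood at 11.7, 2.55, 4.73 and 1.01 normalized counts at 3 months and 292, 568, 62.4 and 1401 at 24 months, with no overlap (log2 change 6.19, SE 1.05, limma adjusted p 0.00027). Pax9, Lhx8 and Lhx6, homeobox and paired-box factors of the developing jaw and pharyngeal arches, were picked after their values had been seen. Pax9 stood at 3.2, 6.79, 1.89 and 8.05 and 1031, 16.7, 169 and 296, Lhx8 at 0, 11, 0.95 and 0 and 685, 9.27, 45.4 and 70.7, and Lhx6 at 0, 1.7, 0 and 5.03 and 75.5, 139.9, 21.5 and 54.6. Pax9 and Lhx8 were both highest in 24-month replicate 1, and lowest in replicate 2. Lhx8 in replicate 2 lay within the 3-month range.

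The lower members of that list were Msx2, Lhx2, Sox9 and Foxc2. Msx2, a homeobox factor of skull and limb mesenchyme, stood at 92.9, 20.4, 69.1 and 107 normalized counts at 3 months and 13, 5.56, 7.94 and 5.37 at 24 months. Lhx2, a LIM-homeobox factor, stood at 244, 135, 198 and 363 and 27.8, 14.8, 172 and 34.9, with 24-month replicate 3 inside the 3-month range. Sox9, the master factor of chondrocytes, also stands on the chondrocyte list and changed by -0.79. Of 9 tested HOX genes, which mark position along the body axis, Hoxa3 was called higher (log2 change 1.14, SE 0.39) and 8 were not called. The Hoxa3 call was lost without 3-month replicate 2 or 3 and without 24-month replicate 1 or 4.

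Several fibrillar collagens other than those of cartilage were higher at 24 months, among them some of the most abundant transcripts of these cells. Of 16 tested genes listed as fibrillar and beaded collagens 6 were higher at 24 months and 0 were lower, with a median change of 0.81. The fibrillar chains Col2a1, Col11a1 and Col11a2, which were lower, stand on the chondrocyte list and are not among the 16. Col1a1, a chain of type I collagen, stood at 177046, 179086, 126835 and 170261 normalized counts at 3 months and 408986, 505660, 230314 and 422872 at 24 months. The mean was 2.4 times higher with no overlap of the ages (log2 change 1.22, SE 0.28, limma adjusted p 0.0035). Its partner chain Col1a2 rose 1.63-fold in the mean, and Col3a1, the chain of type III collagen, 1.8-fold. Col5a3, a minor fibrillar chain, stood at 141, 249.5, 57.7 and 245 and 2043, 1168, 2521 and 2375. Col6a1, of the beaded type VI collagen, had means of 131541 ± 23580 and 97364 ± 24846 (SD, n = 4 each) and was not called (limma adjusted p 0.1). Without 24-month replicate 3, 8 members were higher and 2 lower.

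Postn, the matricellular protein periostin, changed by more than the chains of type I and III collagen, from 20799, 16297, 10016 and 20514 at 3 months to 304860, 192608, 155133 and 243383 at 24 months, a mean 13.2 times higher (log2 change 3.74, SE 0.33). Of 34 tested genes of elastic fibres and matrix glycoproteins 12 were higher and 8 lower, with a median change of 0.32. Mfap4, a glycoprotein of elastic fibres, stood at 4.27, 31.4, 17 and 15.1 and 561, 707, 36.3 and 373, with replicate 3 the lowest at 24 months. Fmod, the proteoglycan fibromodulin, fell from 36015 ± 6309 to 12277 ± 8019 (SD, n = 4 each), a call lost without 3-month replicate 3, without 24-month replicate 2 and in a fit of the 8 libraries alone. Fn1, fibronectin, was the most abundant gene in 7 of the 8 libraries and was not called, with means of 845611 ± 102116 and 511532 ± 174927 (limma adjusted p 0.069). Of 21 tested basement membrane genes 8 were higher and 1 was lower. Lama2, a laminin chain, stood at 54.4, 146, 56.8 and 66.5 and 1602, 1659, 336 and 1436, and Col15a1 at 760.1, 1973, 179 and 1147 and 3908, 5270.3, 6052 and 4015. The lower member was Nid2, nidogen-2, whose 3-month mean was 2.13 times the 24-month mean.

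Among enzymes that process and cross-link collagen, most calls were lower. Of 21 tested members 2 were higher and 8 lower at 24 months, with a median change of -0.26, and in a fit of the 8 libraries alone 5 were lower. Lox, the lysyl oxidase that starts collagen and elastin cross-links, stood at 416459, 237128, 285475 and 385270 normalized counts at 3 months and 108877, 138592, 177480 and 91014 at 24 months, with no overlap (log2 change -1.37, SE 0.25, limma adjusted p 0.00049). Loxl4, of the same family, stood at 27119, 19002, 27678 and 25406 and 3374, 1754, 6348 and 2175. Adamts2, which removes the amino-terminal propeptide of procollagen, was a higher member, from 2286 ± 844 to 11170.3 ± 4881 (SD, n = 4 each).

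Of 34 tested matrix proteases and inhibitors 15 were higher and 5 lower, with a median change of 0.44. Without 3-month replicate 1 or 4 the lower members numbered 3. Adamts15, a protease that cleaves aggrecan and versican, stood at 35.2, 245, 63.4 and 25.2 and 1526, 1377, 469 and 1639.6. Timp3, a matrix-bound inhibitor of metalloproteinases, fell from 134320 ± 21804 to 70472 ± 8351 (SD, n = 4 each). Of 18 tested contractile and myofibroblast genes 9 were higher and 1 was lower, with a median change of 0.95. Myl9, a regulatory light chain of smooth muscle myosin, had means of 979.8 ± 418 and 4891 ± 3543 (SD, n = 4 each), and 24-month replicate 3 lay inside the 3-month range. Acta2, smooth muscle actin, stood at 11196, 12122, 19698 and 13705 and 20781, 50689.8, 11944 and 19109 and was not called (limma adjusted p 0.16). Without 24-month replicate 2 there were 6 higher members, and without replicate 3 there were 11. Ccn2, the matricellular growth factor known as CTGF, and the cartilage collagen chain Col11a1 were among the 6 largest falls in normalized counts. Ccn2 stood at 86494, 63176, 151437 and 57469.6 and 29173, 22713, 19777 and 30605, and Col11a1 at 134744, 87165, 110395 and 94834 and 39358, 24091, 44917 and 38334.

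**Figure D3:**
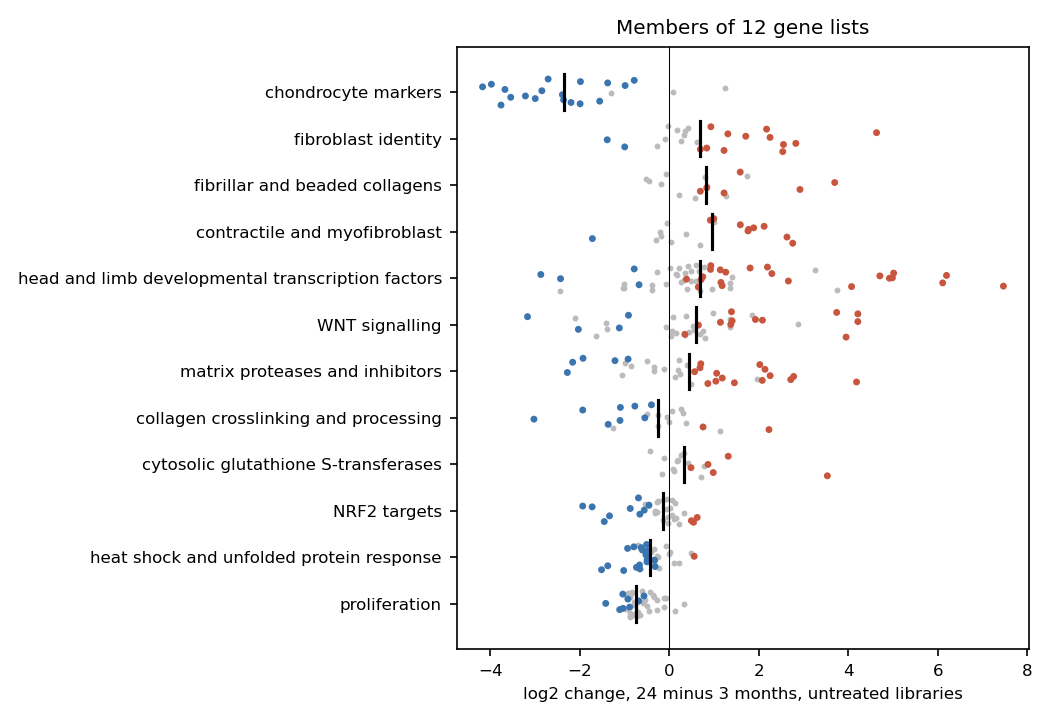
Log2 change, 24 minus 3 months, of each tested member of 12 gene lists in the untreated libraries (1 point per gene, red called higher, blue called lower, grey not called), with a black bar at the list's median. The medians run from -2.37 for chondrocyte markers to 0.95 for contractile genes, beside 0.0031 for all 14138 genes tested.

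Of 38 tested genes of WNT signalling 12 were higher at 24 months and 4 lower, with a median change of 0.60, and the higher members numbered 6 without 3-month replicate 1, without 3-month replicate 2 or without 24-month replicate 4. Rspo2, a secreted WNT amplifier, stood at 56.6, 77.2, 15.1 and 112 normalized counts at 3 months and 1366, 465, 908 and 1656 at 24 months. Wnt4, a ligand, stood at 3.2, 20.4, 16.1 and 2.01 and 62.5, 1425, 79.4 and 73.4, with replicate 2 far above the other 24-month libraries. Wif1, a secreted WNT inhibitor, stood at 138, 154, 401 and 174 and 40.8, 6.49, 39.7 and 17, a call lost with a pseudocount of 0.1. Sfrp2, a secreted frizzled-related protein, rose from 15314 ± 6659 to 62520.5 ± 36022 (SD, n = 4 each), a call lost without 3-month replicate 1, 3-month replicate 2 or 24-month replicate 4 and with libraries b1 and b2 averaged.

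Of 36 tested genes of TGF-beta and BMP signalling 4 were higher and 6 lower, with a median change of -0.0036, beside 11.3% higher and 9.78% lower over all tested genes. Grem1, a secreted antagonist of BMPs, stood at 1433, 1383, 1562 and 1091 at 3 months and 77.2, 54.7, 202 and 115 at 24 months (log2 change -3.75, SE 0.51). Tgfbr2, a TGF-beta receptor, rose 2.25-fold in the mean. Of 19 tested genes of the IGF axis 4 were higher and 2 lower, and the higher members numbered 2 without 3-month replicate 3 or without 24-month replicate 4, a share near that of all tested genes. The binding protein gene Igfbp6 stood at 21.4, 272, 69.1 and 321 and 3004, 2947, 1573 and 2980.1, and Igfbp3 at 1779.5, 1158, 1626 and 1376 and 269, 725, 382 and 379.7. No library overlapped between the ages in either.

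Of 29 tested imprinted genes, expressed from 1 parental copy, 8 were higher and 4 lower, with a median change of 0.28. Without 3-month replicate 1 these counts were 5 and 2. Over all tested genes 11.3% were higher and 9.78% lower. Peg3, a paternally expressed zinc finger gene, stood at 592, 451, 1395 and 294 normalized counts at 3 months and 46, 34.3, 27.2 and 34 at 24 months, the widest spread being among the 3-month libraries (log2 change -4.01, SE 0.65, limma adjusted p 0.00018). Mkrn3 and Nnat rose at low levels, Mkrn3 from 1.77 ± 2.4 to 15.5 ± 6.14 and Nnat from 2.92 ± 2.86 to 20.1 ± 9.61 (SD, n = 4 each). The Nnat call was lost in 5 of 18 alternatives.

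Of 39 tested genes listed for senescence and its secretory phenotype 6 were higher at 24 months and 9 lower, with a median change of -0.20, beside 11.3% higher and 9.78% lower over all tested genes. Cdkn2a, which encodes the cell cycle inhibitor p16 and, in another reading frame, p19ARF, which a count per gene does not separate, was picked after its values had been seen. It stood at 424, 309, 266 and 735 normalized counts at 3 months and 749, 1575, 1349 and 904 at 24 months. Its mean was 2.64 times higher and the ages did not overlap, with 3-month replicate 4 just below the lowest 24-month library (log2 change 1.45, SE 0.29, limma adjusted p 0.0011). Hgf, hepatocyte growth factor, was a higher member, at 311, 332, 138 and 352 and 1489, 1075, 780.1 and 1050.4. Igfbp3, given above, also stands on this list and was lower. Without 3-month replicate 1 the lower members numbered 5.

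Of 43 tested proliferation genes 0 were higher and 8 lower, with a median change of -0.75, beside 11.3% higher and 9.78% lower over all tested genes. Rrm2, a subunit of ribonucleotide reductase, stood at 1549, 1173, 1061 and 1109 at 3 months and 411, 924, 697 and 447 at 24 months. Top2a, a topoisomerase of dividing cells, stood at 4801, 3709, 3077 and 3377 and 1453, 4241, 1823 and 1643 and was not called (limma adjusted p 0.078). Replicate 2 had the highest level of both genes at 24 months. The count of lower genes rested on single libraries, and without some of them it was below the share of all tested genes. It was 22 without 24-month replicate 2, 5 without 24-month replicate 3 or without 3-month replicate 3, 2 without 24-month replicate 1, 1 without 24-month replicate 4 and 0 without 3-month replicate 1.

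**Figure D4:**
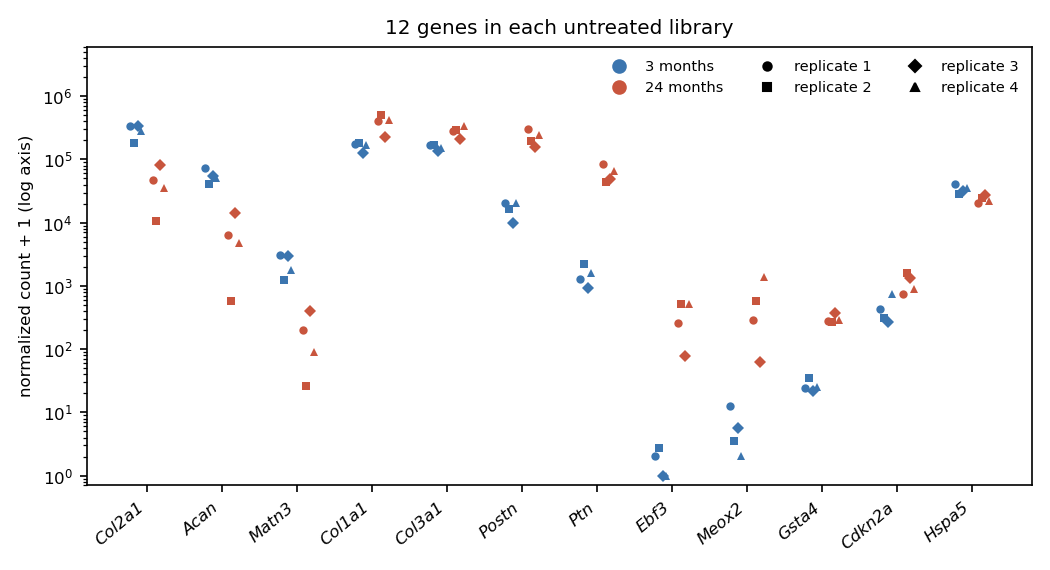
Normalized count + 1 (vertical log axis) of 12 genes in each untreated library, blue at 3 months and red at 24 months, with 1 symbol per replicate number. Col2a1, Acan, Matn3 and Hspa5 lie lower at 24 months and the other 8 genes higher, with no overlap of the ages in any of the 12, and Ptn runs from 2183 at most at 3 months to 43437 at least at 24 months.

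Genes of the heat shock and unfolded protein response were lower at 24 months more often than higher. When unfolded proteins build up in the endoplasmic reticulum, the factor ATF6 with NF-Y acts through a composite site called ERSE, and ATF4 acts through another called CARE. Of 34 tested genes of the heat shock and unfolded protein response 18 were lower and 1, Hspa1b, was higher, with 15 not called and a median change of -0.44. Chac1, an enzyme that degrades glutathione, stood at 1426, 928, 1289 and 920.2 normalized counts at 3 months and 553, 417, 417 and 355 at 24 months, with no overlap (log2 change -1.38, SE 0.24, limma adjusted p 0.00036). Atf3, a stress-induced transcription factor, fell by 1.52 (SE 0.36) and Asns, asparagine synthetase, by 1.02 (SE 0.20). Hspa8, the constitutive cytosolic chaperone, stood at 39931, 41653, 43375 and 40076 and 40285, 41123, 40845 and 40478 and was not called (limma adjusted p 0.91).

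RefSeq promoters of the mouse build GRCm38.p6, from 250 bases before to 50 after each start, were searched on both strands for ERSE, the letters CCAAT followed after 9 bases of any kind by CCACG. They occurred in 39 of 32851 promoters, 0.119%. Of the 34 listed genes 30 had a promoter in the table and 7 of those had the letters (Hspa5, Calr, Hsp90b1, Canx, Pdia6, Dnajc3 and Creld2, named for that reason after their values had been seen). All 7 were called lower at 24 months. Of all 19 tested genes with the letters 8 were called lower and 2 higher, beside 9.78% and 11.3% of all tested genes. The 7 listed genes are among these 8, so this count is not independent of the list. The letters TGATGNAAN (CARE) occurred in 3.95% of promoters and in 5 of the 30. Of these Atf3, Chac1, Asns and Herpud1 were called lower and Trib3 was not (limma adjusted p 0.057). Of all 298 tested genes with the CARE letters 40 were called lower and 38 higher. Stretches around the match are shown for 4 genes with ERSE and 2 with CARE, 5′ to 3′ on the gene's strand, with the fixed letters of the motif, or of its reverse complement, in capitals:
Hspa5: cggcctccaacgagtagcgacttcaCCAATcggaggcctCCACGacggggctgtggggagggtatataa
Calr: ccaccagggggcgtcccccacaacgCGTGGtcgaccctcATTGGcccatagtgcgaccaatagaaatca
Pdia6: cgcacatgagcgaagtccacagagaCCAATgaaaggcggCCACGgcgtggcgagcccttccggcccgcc
Creld2: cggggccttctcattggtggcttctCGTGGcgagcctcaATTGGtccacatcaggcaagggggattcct
Chac1: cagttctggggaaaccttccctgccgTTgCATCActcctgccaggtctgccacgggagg
Atf3: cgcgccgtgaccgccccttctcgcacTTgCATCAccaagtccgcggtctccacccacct
They lie at chr2:34772000-34772068 (Hspa5, plus strand), chr8:84847050-84847118 (Calr, minus strand), chr12:17266466-17266534 (Pdia6, plus strand), chr15:88819495-88819563 (Creld2, plus strand), chr2:119351023-119351081 (Chac1, plus strand) and chr1:191183411-191183469 (Atf3, minus strand), upstream of each start.

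Hspa5, the chaperone BiP, stood at 40801, 28741, 31378 and 35699.8 normalized counts at 3 months and 20367, 24778, 27420.5 and 22073 at 24 months, with no overlap (log2 change -0.53, SE 0.15, limma adjusted p 0.014). Calr, the lectin chaperone calreticulin, fell by 0.74 (SE 0.17) and Pdia6, a disulfide isomerase, by 0.63 (SE 0.15). Creld2, a secreted stress-response protein, fell by 0.67 (SE 0.17), and Dnajc3, a co-chaperone of BiP, by 0.33 (SE 0.08). Canx, calnexin, fell by 0.32, a call lost in 10 of 18 alternatives, and Hsp90b1, the chaperone GRP94, by 0.48, a call lost without 3-month replicate 1 or 4 and without 24-month replicate 1 or 4. The Hspa5 call was lost without 3-month replicate 1 and without 24-month replicate 1. Chondrocyte markers moved with these chaperones by age, and their part in the difference was not tested. In the OSK and withdrawal libraries 1 and 0 members of the list were higher with age and 5 and 5 lower. Over all tested genes 5.2% and 4.63% were higher and 6.71% and 3.45% lower.

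Gsta4, the glutathione S-transferase that conjugates the lipid peroxidation product 4-hydroxynonenal and that the series' design text names, was higher at 24 months. It lies at chr9:78191966-78209349 in GRCm38.p6, per RefSeq. It stood at 23.5, 34, 20.8 and 24.2 normalized counts at 3 months and 273, 271, 379 and 292 at 24 months. The ages did not overlap and the mean was 11.9 times higher (log2 change 3.53, SE 0.28, limma adjusted p 7.5e-08, or 0.00015 in a fit of the 8 libraries alone). Permuting the age labels of the 8 libraries exactly, two-sided, gave p = 0.0286, the smallest that 70 arrangements can give. Over all alternatives of processing and left-out libraries the log2 change lay between 3.14 and 3.67 and was called in each.

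Of 17 tested cytosolic glutathione S-transferases 5 were higher and 0 lower (Gsta4, Gstt1, Gstm1, Gstm7 and Gstm5), with a median change of 0.33. Gstt1, of the theta class, stood at 331, 468, 310.4 and 382 at 3 months and 895, 870.05, 905 and 999 at 24 months, a difference of 1.31 in log2 (SE 0.15, limma adjusted p 4.7e-06). Gstm1 rose 1.99-fold and Gstm7 1.87-fold in the mean, and reads of the mu class genes may be shared between these close paralogs. NRF2, the factor that induces many genes of glutathione and redox metabolism, had 33 tested targets on its list, of which 3 were higher and 9 lower, with a median change of -0.15. Osgin1, a growth inhibitor induced by oxidative stress, stood at 523, 429, 412 and 463 and 137, 136, 121 and 85.1. Fth1, the heavy chain of the iron store ferritin, stood at 137416, 146449, 200590 and 170920 and 59074, 49378, 87987 and 65454. Nqo1, a quinone reductase, fell from 4129 ± 802 to 1564 ± 1271 (SD, n = 4 each), a call lost without 24-month replicate 2 and in a fit of the 8 libraries alone.

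Of 33 tested genes of aldehyde and lipid peroxide detoxification 6 were higher and 5 lower, with a median change of -0.0045, beside 11.3% higher and 9.78% lower over all tested genes. Aldh3a1, an aldehyde dehydrogenase of the cornea and of drug-exposed tissues, stood at 22.4, 22.1, 37.9 and 26.2 at 3 months and 110.2, 104, 124 and 117 at 24 months. Aldh1a1, which oxidises retinaldehyde, stood at 3390.4, 3561, 6501 and 7592 and 1945, 2273, 1728 and 1563. The pair changed in opposite directions, each with no overlap of the ages.

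Of 21 tested antigen presentation genes 6 were higher and 1 was lower at 24 months, with a median change of 0.25. Psmb8, a subunit of the immunoproteasome, stood at 89.7, 69.6, 43.5 and 41.3 normalized counts at 3 months and 158, 202, 231 and 139.7 at 24 months, a difference of 1.61 in log2 (SE 0.32, limma adjusted p 0.001). H2-T23, a non-classical class I gene with close paralogs that may share reads, rose 2.42-fold. The lower call was lost without any of 3-month replicates 1, 3 and 4 or 24-month replicates 1 and 4. Of 40 tested interferon response genes 6 were higher and 3 lower, shares near the 11.3% and 9.78% of all tested genes, with a median change of 0.45, and the higher members numbered 3 without 3-month replicate 3 or 4 or without 24-month replicate 1 or 4. Parp14, an interferon-induced ADP-ribosyltransferase, stood at 77.9, 154, 58.7 and 79.5 and 317, 261, 201 and 236, with no overlap.

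Of the 3 reprogramming factors, Sox2 was called for age in these untreated cells. It stood at 20.3, 17, 6.63 and 6.04 normalized counts at 3 months and 77.2, 33.4, 70.3 and 39.4 at 24 months, a difference of 2.14 in log2 (SE 0.52, limma adjusted p 0.0056). Pou5f1 stood at 4.27, 9.33, 1.89 and 2.01 and 15.6, 30.6, 3.4 and 11.6 (limma adjusted p 0.086), and was called without 3-month replicate 2, without 24-month replicate 3 and with DESeq2. Klf4 stood at 2827, 2683, 2899 and 1485 and 1786, 1837, 1172 and 1386, and the ages overlapped (limma adjusted p 0.15). In the OSK libraries Pou5f1 had means of 3002 ± 724 at 3 months and 4597 ± 1372 at 24 months (SD, n = 4 each). Endogenous and transgene reads are not separated in these values.

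The same ages were compared in libraries that the untreated comparison does not use. They may come from the same cultures, as their names carry the same letters, and all groups share 1 estimate of the spread. After withdrawal 655 genes were higher and 488 lower at 24 months (8.08% of those tested), and with OSK 735 were higher (5.2%) and 948 lower (6.71%), 11.9% in all. Of the 2981 untreated calls 866 were called the same way after withdrawal, which is 29.1% of the untreated calls and 75.8% of the withdrawal calls, and 3 were called the opposite way. With OSK 580 were called the same way, 19.5% of the untreated calls and 34.5% of the OSK calls, and 69 the opposite way. The sign alone was shared by 94.1% of the higher and 94.9% of the lower calls after withdrawal and by 69.0% and 76.7% with OSK. In all 3 comparisons 243 genes (1.72%) were called in the same direction, 122 (0.863%) higher and 121 (0.856%) lower.

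Genes called in all 3 included Gsta4, Ebf3, Meox2, Igfbp6 and Aldh3a1, which rose, and Msx2, Lum, Grem1 and Loxl4, which fell. The log2 change of Gsta4 was 3.53 in untreated cells, 1.88 with OSK and 2.17 after withdrawal. With OSK it stood at 1199, 2899, 2129 and 2563 at 3 months and 8538, 8459, 9159 and 5268 at 24 months, and after withdrawal at 141, 289, 113 and 133 and 932, 847, 529 and 609. The ages did not overlap under any treatment. Meox2 changed by 6.19, 4.30 and 6.26, Aldh3a1 by 2.06, 1.81 and 2.07, and Msx2 by -2.87, -4.08 and -3.13 in the same order.

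The age difference itself differed between OSK and untreated cells in 986 genes (6.97%) by the interaction term, with 330 differences (2.33%) positive and 656 (4.64%) negative. Same-numbered untreated and OSK libraries of an age deviated together, and with the replicate number blocked within each age 1568 genes were called, 516 positive and 1052 negative, 967 of them among the 986. Scn7a and Asic2, named above, were at 0 in all 8 OSK libraries, so their interactions hold no age difference measured with OSK. Ptn stood at 7939.5, 8763, 8149 and 8449 at 3 months and 12025, 12200.1, 11765 and 19248 at 24 months with OSK, a change of 0.70, an interaction of -4.65 (limma adjusted p 4.4e-07). Postn changed with age by -0.30 with OSK, an interaction of -4.04 (limma adjusted p 3.1e-05), and Col2a1 by 0.37, an interaction of 3.37 (limma adjusted p 0.014). Hgf was lower with age in OSK cells (-2.59) and higher in untreated cells (2.00), an interaction of -4.59 (limma adjusted p 0.00036).

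Between withdrawal and untreated cells 1 gene (0.00707%) differed in its age difference by limma, Ptn, while 987 genes had an unadjusted p under 0.05, edgeR called 0 and DESeq2 called 33. With the replicate number blocked within each age limma called 23, Ptn among them. Ptn stood at 8998, 20359, 13195 and 15571 at 3 months and 148588, 77809.8, 125926 and 85649 at 24 months after withdrawal. Its rise with age was 2.92 there and 5.35 in untreated cells, a difference of -2.43 (SE 0.38, limma adjusted p 0.029). The 3-month withdrawal libraries lay above the untreated 3-month libraries. No gene was called without untreated 3-month replicate 1, 3 or 4, untreated 24-month replicate 1 or 4, 3-month withdrawal replicate 2 or 3, or 24-month withdrawal replicate 2 or 4.

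**Figure D5:**
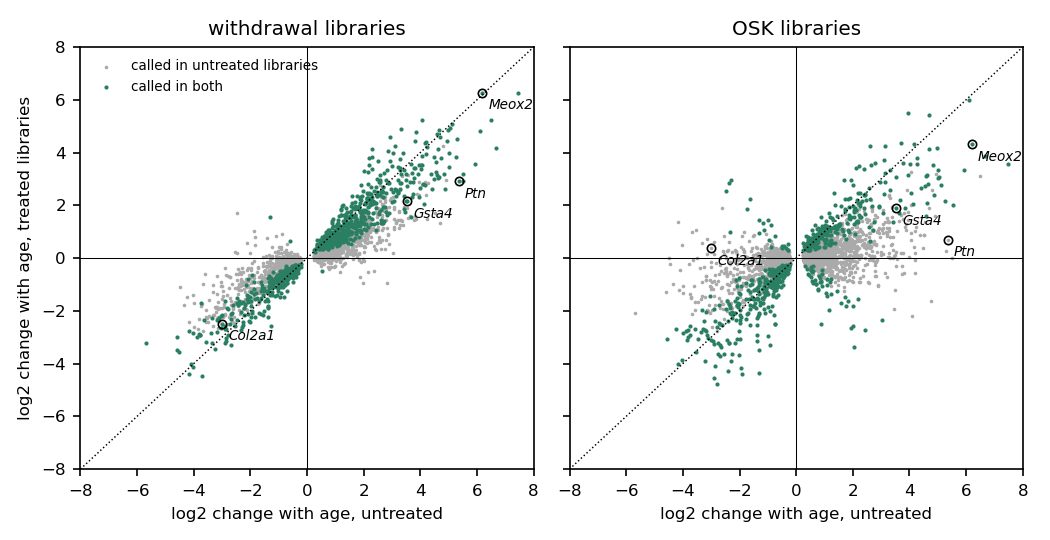
Log2 change with age in withdrawal libraries (left) and OSK libraries (right) on the vertical axis against that in untreated libraries on the horizontal axis, for the 2981 genes called in untreated libraries. Green points are called under the treatment as well, the dotted line marks equal change, and circles mark Meox2, Gsta4, Ptn and Col2a1. Ptn lies at 2.92 after withdrawal and 0.70 with OSK.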

How the data were processed

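The authors deposited 1 table of 26206 genes by 24 libraries, whose values were used as signal: counts of reads per gene divided by 1 factor per library. Per the submitters' processing notes, STAR 2.7.1a and featureCounts 1.6.2 were used. Which build had which role, whether counting used strand and what set the factors are not given in the sources used here. The factors stood at a nearly constant ratio, 1.016 to 1.023, to those that DESeq2 computed from the recovered reads. Values were whole multiples of 1 step per library, and in all 24 libraries 100% came out as whole reads, to the 2 decimals printed; that step lies near 1 in untreated 3-month replicate 4 and in replicate 1 of 24-month withdrawal. Groups came from the sample titles. Replicate numbers did not pair the ages, but within an age untreated and OSK libraries of the same number deviated together in 8 of 8 pairs (r 0.138 to 0.306), and untreated and withdrawal libraries in 7 of 8 at r over 0.1 (0.032 to 0.605).

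A gene was tested where 4 or more libraries reached 10 normalized counts (14138 genes), on log2(value + 1) with limma 3.58.1 in R 4.3.3 (lmFit, eBayes with trend and robust), 6 groups, all 24 libraries, two-sided, Benjamini-Hochberg adjustment within a contrast, called under 0.05. On simulated counts of 14138 genes for this comparison, 32.8%, 70.1% and 86.4% of genes changed 1.5-, 2- and 4-fold were called, and 6 unchanged genes were. Only 67, 67 and 66 genes were changed there, while 21.1% were called in the data. Genes were also drawn independently, with no deviation shared within a library, so these rates need not hold for the real libraries. Folds against groups with at most 3 reads per library are bounds and cover counting error only. edgeR 4.0.16 and DESeq2 1.42.0 were run on recovered reads as alternatives.

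Members and gene lists were chosen with earlier results of these data known. Named genes were Gsta4, Pou5f1, Sox2 and Klf4, the 12 largest rises and falls in log2 and the 6 largest in normalized counts (called, ages not overlapping, for log2 a higher mean of at least 50, no predicted genes or clones), the largest interactions, and from each list at most 4 called and 2 abundant uncalled members, or any of lists with 10 or fewer tested. Some genes that this rule names are not reported here. Others were picked after their values were seen, as said there or to complete a count. Promoters and positions came from RefSeq (GRCm38.p6).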

Additional observations from a re-analysis of the deposited data

Results flagged for a closer look

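In 23 of 210 gene and age groups, 1 of the 4 libraries lay so far from the others that its gap to the nearest of them as a share of the group's whole range passed Dixon's critical value. Chance alone gives about 1 in 20 such groups. Replicate 1 at 24 months was the highest library by this gap, with a ratio of 0.841 for Fn1 and 0.909 for Lhx8. Replicate 2 at 24 months was the highest library by this gap, with a ratio of 0.85 for Galnt17, 0.937 for Sim1, 0.988 for Wnt4 and 0.867 for Top2a. Replicate 3 at 24 months was the highest library by this gap, with a ratio of 0.974 for Coch, 0.971 for Fcgr2b and 0.872 for Lhx2. Replicate 3 at 24 months was the lowest library by this gap, with a ratio of 0.832 for Lama2 and 0.96 for Igfbp6. Replicate 4 at 24 months was the highest library by this gap, with a ratio of 0.916 for Ngfr. Replicate 1 at 3 months was the highest library by this gap, with a ratio of 0.944 for Coch, 0.847 for F13a1 and 0.884 for Lum. Replicate 2 at 3 months was the highest library by this gap, with a ratio of 1 for Ms4a4d, 0.869 for Lama2 and 0.914 for Lhx8. Replicate 3 at 3 months was the highest library by this gap, with a ratio of 0.861 for Sim1, 0.862 for Wif1 and 0.847 for Snorc. Replicate 3 at 3 months was the lowest library by this gap, with a ratio of 0.831 for Col1a1. Replicate 4 at 3 months was the lowest library by this gap, with a ratio of 0.847 for Klf4.

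The age difference itself differed between treated and untreated cells in 36 tests of genes named in the report, by the limma interaction term at an adjusted p under 0.05. Each value is the log2 age change with the treatment less that in untreated cells. Among matrix and matrix-remodelling genes the negative differences with OSK were -1.49 for Col1a1, -4.04 for Postn, -1.57 for Col3a1, -2.97 for Fap, -2.58 for Col15a1, -4.00 for Mfap4, -2.26 for Adamts2 and -4.74 for Adamts15. Among genes of antigen presentation and the interferon response they were -3.52 for Mndal, -2.37 for Psmb8, -1.40 for H2-T23 and -1.29 for Parp14. Other negative differences were -1.65 for Gsta4, -3.91 for Ebf3, -5.52 for Scn7a, -4.65 for Ptn, -5.03 for Ldb2, -3.10 for Syndig1, -1.13 for Tgfbr2, -4.28 for Rspo2, -4.59 for Hgf, -1.28 for Gstt1 and -3.61 for Tek. Positive differences among cartilage and other matrix genes were 5.53 for Matn3, 3.37 for Col2a1, 1.71 for Ccn2 and 1.51 for Nid2. Other positive differences were 3.31 for Gal3st2, 4.51 for Asic2, 4.25 for Cd28, 4.51 for Fcgr2b, 2.07 for Igfbp3, 1.89 for Osgin1, 0.59 for Hspa8 and 0.74 for Pdia6. These named genes were sorted after their values were seen, and the groupings carry no count or test. Scn7a and Asic2 were at 0 in all 8 OSK libraries, and Ldb2, Cd28, Mfap4, Matn3 and Gal3st2 did not pass 2.81, 3.61, 4.68, 7.38 and 7.75 normalized counts there. At such levels an age difference with OSK could hardly be measured, and the values of these 7 genes mainly restate the untreated change. After withdrawal the difference was -2.43 for Ptn. The part of the chondrocyte marker level, which was lower with OSK in both ages, was not tested.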

How the results depend on the processing

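The count of untreated age calls lay between 2524 and 3377 over the alternatives of pseudocount, filter, scaling, tool, block and library averaging, and between 2112 (without 3-month replicate 1) and 3266 (without 24-month replicate 3) when 1 library was left out. Requiring at least 2-fold gave 1241 genes for untreated cells, 802 for OSK, 568 for withdrawal, 602 for the OSK interaction and 138 for calls shared by all 3. The shared count was 384 with DESeq2 and 168 to 291 with 1 library left out. The OSK count was 1078 to 1588 and the OSK interaction count 676 to 1371 with 1 library left out. The withdrawal count was 760 with libraries b1 and b2 averaged, 539 in a fit of the 8 libraries alone and 628 to 1346 with 1 library left out. The withdrawal interaction count was 3 with a pseudocount of 10, 2 with no filter, 0 with edgeR, 33 with DESeq2 and 0 to 3 with 1 library left out. The cause of these shifts was not tested. Of the 94 named genes called in untreated cells, 81 were called in each alternative that tested them (18 for 89 of the 94 genes and 17 for 5), and 0 of the 94 changed direction. Replicate numbers did not pair the ages: same-numbered untreated libraries correlated at -0.041, 0.11, -0.13 and 0.042 in their deviations, and no library correlated best with its own number. The fit with a replicate block gave 3060 untreated calls, 356 shared calls and 2 withdrawal interactions. Within an age, a replicate block chosen after seeing the data gave 1568 OSK and 23 withdrawal interactions, and of 35 OSK interactions named here it called 35, with 14 more among the named genes. Depth of 23671970 to 31959372 reads limits precision for genes near the filter.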

Other observations

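Of 33 tested genes of cholesterol and fatty acid synthesis 1 was higher and 3 lower at 24 months, with a median change of -0.12, and the lower count was 6 without 3-month replicate 3 and 1 without 3-month replicate 1, 24-month replicate 2 or 24-month replicate 4. Of 23 tested complement and coagulation genes 5 were higher and 3 lower, with a median change of 0.027. Over all tested genes 11.3% were higher and 9.78% lower.

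Among the genes named for the size of their log2 change, Mndal, which rose, and Cd244a and Fcgr2b, which fell, lie within 5 Mb of each other on chromosome 1, between 170 and 175 Mb (GRCm38.p6). In that window 22 of 53 tested genes were called, 41.5%, beside 21.1% over all 14131 tested genes with a RefSeq position. By this share the window ranked 15 of 416 windows with at least 10 tested genes. The window was chosen after the values were seen, and the share is a description with no test.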
